A study of Mus musculus with 8 samples.

Results

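The expression of 10 genes that make nitric oxide or control how much of it is made was examined in RNA-seq of whole mouse aortas. They comprised the 3 nitric oxide synthases Nos1, Nos2 and Nos3, the synthase inhibitor Cav1, Ddah1 and Ddah2, which clear an endogenous synthase inhibitor, Gch1, which begins the synthesis of a synthase cofactor, the arginases Arg1 and Arg2, and the arginine transporter Slc7a1. The 10 genes were set by name for their function, with earlier results of these data known. Each was taken as the table row that carries its name, and all 10 were found among 48607 loci. Of these genes 8 passed the filter of at least 1 FPKM (fragments counted, corrected for transcript length and sequencing depth) in at least 3 libraries, as did 20506 loci in all. Nos1 and Arg1 were below it.

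Nitric oxide is a short-lived gas that nitric oxide synthases make from the amino acid arginine with the help of the cofactor tetrahydrobiopterin, and in arteries it relaxes smooth muscle through soluble guanylate cyclase. Nos3 (eNOS) is the endothelial enzyme, Nos2 (iNOS) is the enzyme induced in inflamed tissue and activated macrophages, and Nos1 (nNOS) is best known from neurons. Caveolin-1 (Cav1) holds eNOS inactive in caveolae, asymmetric dimethylarginine competes with arginine at the enzyme, and arginases use up the same substrate.

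All mice lacked ApoE, the apolipoprotein whose absence lets atherosclerosis develop, and had eaten a Western diet for 12 weeks before the entire aorta was taken. By title, 5 libraries came from ApoE-/- mice and 3 from ApoE-/-NPRC-/- mice, which also lacked NPRC, the natriuretic peptide clearance receptor encoded by Npr3. The deletion was systemic, made by a CRISPR frameshift in the C57BL/6 background, and compared with littermates, and the ApoE-/- line had been bought as male mice 8 weeks old, while the age and sex of the sequenced littermates were not given separately. The methods describe 5 mice in each group, and 3 libraries of ApoE-/-NPRC-/- mice were analysed here. The libraries held 62969165 to 86693276 counted reads, and their counts differed from each other by far more than sampling noise.

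The labels of 4 of the 8 libraries contradict themselves, which bears on every comparison. ApoE-/- 4 and 5 carry the double knock-out in the genotype entry, and ApoE-/-NPRC-/- 1 and 2 carry the single knock-out there. Libraries are named here by title, the comparison by title is given first, and the same comparison by genotype entry (also 5 against 3) beside it. Only ApoE-/- 1, 2 and 3 and ApoE-/-NPRC-/- 3 have labels that name 1 genotype.

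The targeted gene did not separate the groups under either label. Npr3 stood at 1.69, 0.93, 0.62, 1.01 and 1.67 FPKM in ApoE-/- libraries 1 to 5 and at 1.18, 1.39 and 1.13 FPKM in ApoE-/-NPRC-/- libraries 1 to 3. The log2 fold change was 0.10 ± 0.28 (SE) by title, with an adjusted p of 0.901 in edgeR's quasi-likelihood test, and 0.16 ± 0.28 by genotype entry. A frameshift need not lower the mRNA, so the Npr3 values do not show which label is right.

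Ordered by mean FPKM over the 8 libraries, which is scaled to transcript length and so can be compared between genes, Cav1 was highest at 13.0 ± 8.07 (SD, n = 8). Ddah2 followed at 9.85 ± 2.26 and Nos3 at 8.07 ± 1.36, so the endothelial synthase was the most abundant of the 3 synthases. Slc7a1 stood at 3.96 ± 0.616, Nos2 at 3.71 ± 1.67, Ddah1 at 2.15 ± 0.88, Gch1 at 1.26 ± 0.508 and Arg2 at 1.11 ± 0.53. Arg1 (0.546 ± 0.348) and Nos1 (0.236 ± 0.131) were lowest. Of the 9 steps between neighbours in this order, the ranges of the libraries were apart only between Nos3 and Slc7a1. Endothelial RNA was present throughout, since its 10 markers (among them Pecam1, Cdh5 and Vwf) had a mean level of 6.46 to 6.64 log2 CPM over the 8 libraries. All 10 passed the filter.

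**Figure D1:**
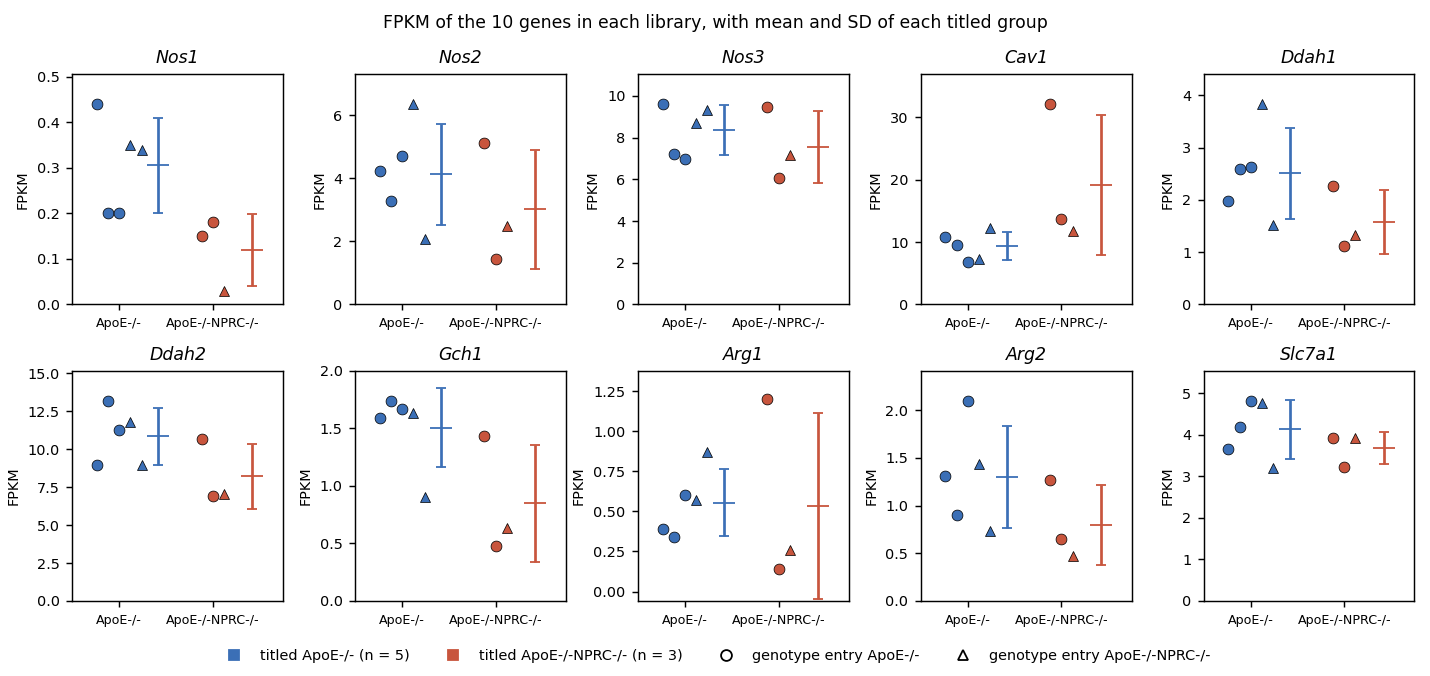
FPKM of each gene (vertical axis, a separate scale for each gene) in every library, with colour for the title and point shape for the genotype entry; the bars to the right give the mean and SD of each titled group. Cav1 in ApoE-/-NPRC-/- 1 stands at 32.11 FPKM, far above the other 7 libraries, and the Nos1 points of the 3 titled ApoE-/-NPRC-/- libraries lie below those of the 5 ApoE-/- libraries.

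Promoter sequences are shown for 4 genes, Cav1, which was the only tested gene of the 10 with a higher value in the titled ApoE-/-NPRC-/- libraries, and Gch1, Ddah1 and Ddah2, whose levels went up and down together over the libraries. In the promoter table used here, taken from RefSeq (GRCm38.p6), 6 of the 10 genes were matched: Nos1, Cav1, Ddah1, Ddah2, Gch1 and Slc7a1. Each sequence is the 250 bases before the transcription start, 5′ to 3′ along the gene, with capitals for a match on either strand to the GC box GGGCGG, the CCAAT box CCAAT, the TATA box TATAAA or the cAMP response element core TGACG.
Cav1, chr6:17306085-17306334, plus strand: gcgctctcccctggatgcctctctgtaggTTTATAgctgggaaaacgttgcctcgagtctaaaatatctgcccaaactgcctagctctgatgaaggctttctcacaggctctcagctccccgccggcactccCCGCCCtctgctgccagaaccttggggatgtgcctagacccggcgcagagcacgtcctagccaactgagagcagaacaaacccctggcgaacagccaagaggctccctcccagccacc
Gch1, chr14:47189414-47189663, minus strand: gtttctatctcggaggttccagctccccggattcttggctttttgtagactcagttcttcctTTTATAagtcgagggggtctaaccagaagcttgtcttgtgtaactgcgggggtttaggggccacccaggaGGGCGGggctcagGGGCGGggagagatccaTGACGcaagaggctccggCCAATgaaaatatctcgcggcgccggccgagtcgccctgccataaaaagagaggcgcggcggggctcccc
Ddah1, chr3:145758442-145758691, plus strand: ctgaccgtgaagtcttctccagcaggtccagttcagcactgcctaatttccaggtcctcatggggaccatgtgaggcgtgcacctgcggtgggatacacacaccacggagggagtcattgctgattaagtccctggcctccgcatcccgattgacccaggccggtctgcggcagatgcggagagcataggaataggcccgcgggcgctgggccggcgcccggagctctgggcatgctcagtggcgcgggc
Ddah2, chr17:35058785-35059034, plus strand: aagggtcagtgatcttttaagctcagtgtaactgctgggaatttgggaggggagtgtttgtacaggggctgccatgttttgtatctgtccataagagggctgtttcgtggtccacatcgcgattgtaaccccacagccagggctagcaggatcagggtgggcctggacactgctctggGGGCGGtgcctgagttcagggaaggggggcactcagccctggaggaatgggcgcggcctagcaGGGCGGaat
Gch1 held GC boxes 118 and 105 bases before its start, the TGACG core at 88, a CCAAT box at 70 and TATAAA on the opposite strand at 188. Cav1 held a GC box at 118 and TATAAA at 221, both on the opposite strand, and Ddah2 held GC boxes at 72 and 9. The window of another Cav1 start in the table, chr6:17307390-17307639, held none of the 4 motifs. The Ddah1 window held none of the 4, so the 2 genes of that family did not share a match. Of 32851 promoters, 32.7% held GGGCGG, 33.8% CCAAT, 12.4% TATAAA and 17.8% TGACG, so each motif is common, and a match is no evidence of use.

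None of the 8 tested genes passed an adjusted p of 0.05 in edgeR, by title or by genotype entry, where 0.00% of all tested loci did so under either label. The smallest adjusted p of any locus was 0.0525 by title. At an unadjusted p under 0.05, 1 of the 8 genes (Cav1) passed by title and 0 by genotype entry, against 13.6% and 1.31% of all loci. A log2 fold change below 0 was found for 7 of the 8 genes by title, where 50.9% of all loci had one, and for 4 by genotype entry, where 51.0% had one. The median of the 8 was -0.42 by title and -0.05 by genotype entry, beside -0.006 and -0.004 over all tested loci.

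**Figure D2:**
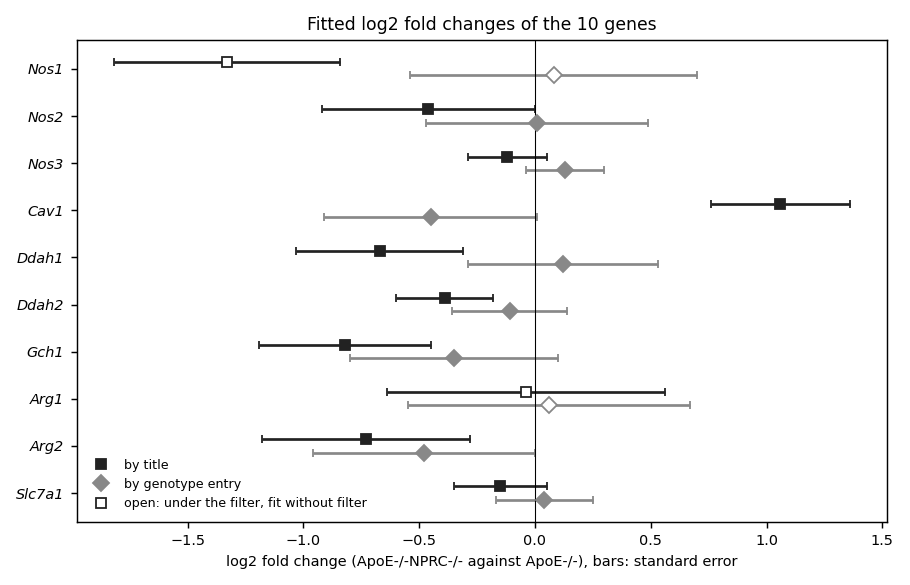
Log2 fold change of ApoE-/-NPRC-/- against ApoE-/- (horizontal axis) with its standard error for each gene, by title (squares) and by genotype entry (diamonds); open symbols are from the fit without a filter on low values. Cav1 is at 1.06 by title and -0.45 by genotype entry, and Nos3 is near 0 under both.

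Nos3 (MSTRG.24277, chr5:24364810-24384474, plus strand of GRCm38), the source of nitric oxide in the endothelium, was measured to ask whether its RNA differs without NPRC. Its level was 9.61, 7.22, 6.97, 8.72 and 9.35 FPKM in ApoE-/- 1 to 5, and 9.45, 6.08 and 7.17 FPKM in ApoE-/-NPRC-/- 1 to 3. The groups overlapped, with means of 8.37 ± 1.21 (SD, n = 5) and 7.57 ± 1.72 (SD, n = 3). The log2 fold change of -0.12 ± 0.17 (SE) had an adjusted p of 0.771 by title, and by genotype entry it was 0.13 ± 0.17 with an adjusted p of 1.0. Leaving out single libraries moved the value by title between -0.29, without ApoE-/-NPRC-/- 1, and 0.04, without ApoE-/-NPRC-/- 2. Among the libraries whose labels agree, ApoE-/-NPRC-/- 3 lay within the range of the 3 ApoE-/- libraries.

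Relative to endothelial markers, the difference in Nos3 was also smaller than the spread between libraries. The mean level of the 10 endothelial markers was 6.46 to 6.64 log2 CPM (counts scaled to library size) in the ApoE-/- libraries. In the ApoE-/-NPRC-/- libraries it was 6.50 to 6.56, and 1 of 10 had an unadjusted p under 0.05 by title, against 13.6% of all loci. The log2 ratio of Nos3 to these markers was -0.93 ± 0.20 (SD, n = 5) and -1.04 ± 0.34 (SD, n = 3), and the difference of -0.11 had p = 0.5 in a two-sided exact permutation test. By genotype entry the difference was 0.17 (exact permutation p = 0.464). Over the 8 libraries Nos3 did not follow the endothelial markers, with a Pearson r of -0.14 (permutation p = 0.743). In a bulk tissue, fewer cells of a type and less RNA per cell cannot be told apart. The antisense locus Gm15587 covers most of Nos3 and held 575 to 1514 counts, and reads of this pair may be shared, since the use of strand in counting was not given in the sources used here.

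Nos2 (MSTRG.5481, chr11:78920787-78960254, plus strand), the inducible synthase, ranged widely within both groups. It stood at 4.23, 3.27, 4.71, 6.35 and 2.08 FPKM in ApoE-/- 1 to 5, and at 5.11, 1.45 and 2.50 FPKM in ApoE-/-NPRC-/- 1 to 3. The group means were 4.13 ± 1.60 (SD, n = 5) and 3.02 ± 1.88 (SD, n = 3), with values of each group on both sides of the other's mean. The log2 fold change was -0.46 ± 0.46 (SE) by title, with an adjusted p of 0.678, and 0.01 ± 0.48 by genotype entry. The value by title depended on single libraries, with -1.03 without ApoE-/-NPRC-/- 1 (adjusted p of 0.251), -0.10 without ApoE-/-NPRC-/- 2 (0.979) and -0.23 without ApoE-/- 4 (0.89).

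Nos1 (ENSMUSG00000029361, chr5:117781032-117954364, plus strand), the neuronal synthase, was under the filter but had 40 to 480 counts in every library. Its level was 0.44, 0.20, 0.20, 0.35 and 0.34 FPKM in ApoE-/- 1 to 5, and 0.15, 0.18 and 0.03 FPKM in ApoE-/-NPRC-/- 1 to 3. All 3 titled ApoE-/-NPRC-/- libraries lay below all 5 ApoE-/- libraries, which 3.35% of the 44689 loci with any count did in the same direction. In the fit without a filter the log2 fold change was -1.33 ± 0.49 (SE), with an unadjusted p of 0.0213 and an adjusted p of 0.41, so the difference did not pass the test. In that fit 5.92% of loci were lower at an unadjusted p under 0.05. By genotype entry the value was 0.08 ± 0.62, and without ApoE-/-NPRC-/- 3, the library with 40 counts, the value by title was -0.88.

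Markers of nerve and Schwann cells, like Nos1, lay lower in the 3 titled ApoE-/-NPRC-/- libraries, but the order of libraries within a titled group differed. ApoE-/-NPRC-/- 2 was lowest in these markers (-1.20 log2 CPM) and highest of the 3 in Nos1 (0.18 FPKM). All 6 of the 8 listed markers that were tested had an unadjusted p under 0.05 by title, against 13.6% of all loci. The mean level of all 8 listed markers was 1.95 to 3.83 log2 CPM in the ApoE-/- libraries and -1.20 to 0.29 in the ApoE-/-NPRC-/- libraries. Th, which makes the precursor of noradrenaline, had a log2 fold change of -5.89 ± 1.18 (SE) and an adjusted p of 0.216. By genotype entry Th had -2.09 ± 1.66, and the mean level of the markers differed by -0.24, against -3.00 by title, with no marker at an unadjusted p under 0.05. Over the 8 libraries Nos1 and this level had a Pearson r of 0.55 (permutation p = 0.195) and a Spearman rho of 0.64 (permutation p = 0.0962), or adjusted 0.375 and 0.247 over 100 pairs of a gene and a marker list. Without the 2 libraries farthest from the median, r was 0.38. Of the 10 marker lists, smooth muscle had the r with Nos1 farthest from 0, at -0.82 (permutation p = 0.0258, adjusted 0.129). Without the 2 libraries farthest from the median of that list it was -0.49. With the macrophage markers Nos1 had an r of 0.54 (permutation p = 0.163, adjusted 0.347), close to that with the nerve and Schwann markers. The part of nerve tissue in the Nos1 values was not tested.

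Cav1 (MSTRG.26529, chr6:17306335-17341452, plus strand), which holds eNOS inactive in caveolae, showed the largest positive difference of the 8 tested genes by title. Its level was 10.75, 9.55, 6.85, 7.27 and 12.19 FPKM in ApoE-/- 1 to 5, and 32.11, 13.72 and 11.75 FPKM in ApoE-/-NPRC-/- 1 to 3. ApoE-/-NPRC-/- 1 was far above all other libraries, and ApoE-/-NPRC-/- 3 was below ApoE-/- 5, so the groups overlapped in FPKM. In log2 CPM they did not overlap, which 3.72% of all tested loci did in this direction.

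The fold change of Cav1 by title was 2.09, or 1.06 ± 0.30 (SE) on the log2 scale, with an unadjusted p of 0.00678 and an adjusted p of 0.267. It met the criterion the study used, which asks for more than 2 times or less than 0.5 times the level and an unadjusted p under 0.05, as did 712 of the 20506 loci (3.47%). Of the 20506 loci 95 (0.463%) met it by genotype entry, and there Cav1 had the opposite sign, -0.45 ± 0.46 with an adjusted p of 1.0. Without ApoE-/-NPRC-/- 1 the log2 fold change by title was 0.50, with an adjusted p of 0.188, and with other libraries left out it was 0.99 to 1.31. Only the DESeq2 Wald test gave an adjusted p under 0.05, at 0.0421, in a fit where 644 loci passed by title, against 0 in the main fit.

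A locus on the opposite strand that also carries the name Cav1 held 834 to 2643 counts, with 2589 in ApoE-/-NPRC-/- 1, and the sum of all loci of that name gave a log2 fold change of 0.87. Cav2, which pairs with caveolin-1 in caveolae, was at 15.72 FPKM in ApoE-/-NPRC-/- 1 and at 11.1 to 16.06 in the ApoE-/- libraries. Its log2 fold change was -0.04 ± 0.13 by title and 0.02 ± 0.14 by genotype entry. Cavin1, the caveolar coat protein, had 0.20 ± 0.17 and -0.04 ± 0.20. Markers of smooth muscle, whose cells also form caveolae, were at 8.59 to 9.05 log2 CPM in the ApoE-/- libraries and 8.98 to 9.88 in the ApoE-/-NPRC-/- libraries. Of them 9 of 10 had an unadjusted p under 0.05 by title and 0 by genotype entry, against 13.6% and 1.31% of all loci. The mean smooth muscle level differed by 0.69 by title and 0.14 by genotype entry. ApoE-/-NPRC-/- 1, highest in Cav1, was lowest of the 3 in these markers (8.98), and Cav1 and this level had a Pearson r of 0.27 (permutation p = 0.474) over the 8 libraries. Other lists lay closer to Cav1. Skeletal muscle had the r farthest from 0, at 0.66 (permutation p = 0.014, adjusted 0.108), or 0.41 without the 2 libraries farthest from the median. Fibroblast had the rho farthest from 0, at -0.86 (permutation p = 0.0107, adjusted 0.0764), with an r of -0.52. No list passed the adjustment with Cav1.

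The log2 ratio of Nos3 to Cav1, computed within a library and so free of library scaling, was 0.03, -0.21, 0.21, 0.45 and -0.19 in ApoE-/- 1 to 5. It was -1.57, -0.98 and -0.52 in ApoE-/-NPRC-/- 1 to 3, and the titled groups did not overlap. The means were 0.06 ± 0.28 (SD, n = 5) and -1.03 ± 0.53 (SD, n = 3). The exact permutation p of 0.0357 is the smallest that 5 against 3 allows, and adjusted over 10 tests of ratios it was 0.357. By genotype entry the difference was 0.42 (exact permutation p = 0.429), in the other direction.

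**Figure D3:**
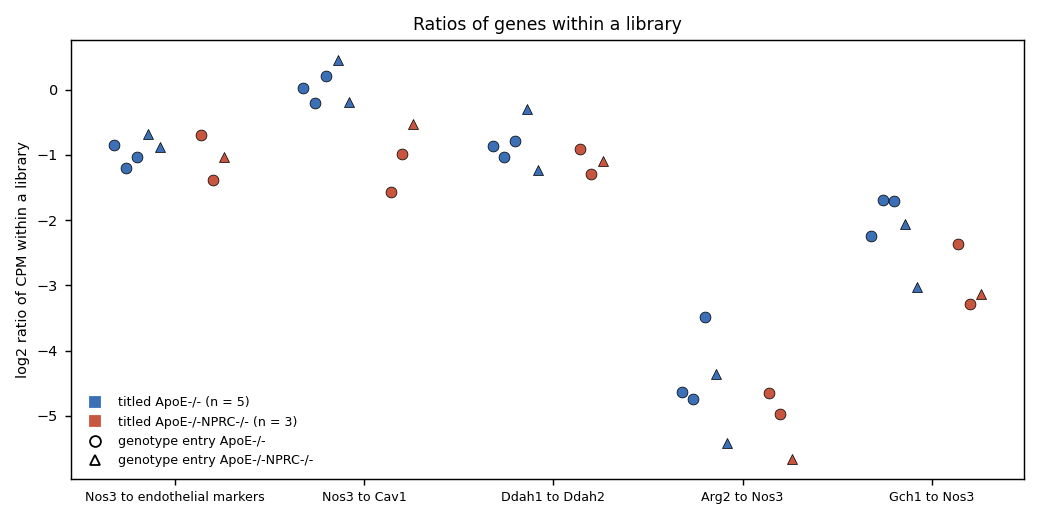
Log2 ratio of CPM within each library (vertical axis) for the 5 ratios tested, with colour for the title and shape for the genotype entry. The 3 titled ApoE-/-NPRC-/- libraries lie at -0.52 or lower in Nos3 to Cav1 and the 5 ApoE-/- libraries at -0.21 or higher, while the other ratios overlap.

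Ddah1 (MSTRG.21790, chr3:145758675-145894277, plus strand) and Ddah2 (MSTRG.14407, chr17:35059035-35062091, plus strand) break down asymmetric dimethylarginine. Ddah1 was at 1.97, 2.58, 2.62, 3.83 and 1.52 FPKM in ApoE-/- 1 to 5 and at 2.27, 1.12 and 1.32 FPKM in ApoE-/-NPRC-/- 1 to 3. Ddah2 was at 8.97, 13.2, 11.24, 11.82 and 8.95 FPKM and at 10.68, 6.9 and 7.05 FPKM in the same order. In both genes ApoE-/-NPRC-/- 2 and 3 were the lowest of all 8 libraries and ApoE-/-NPRC-/- 1 lay among the ApoE-/- libraries. Neither difference passed the test, with log2 fold changes of -0.67 ± 0.36 (SE) and -0.39 ± 0.21 by title and adjusted p of 0.431 and 0.445. By genotype entry they were 0.12 ± 0.41 and -0.11 ± 0.25, and both values by title moved when single libraries were left out. Ddah1 was at -1.01 without ApoE-/-NPRC-/- 1 (adjusted p of 0.19), -0.45 without ApoE-/-NPRC-/- 2 (0.837) and -0.44 without ApoE-/- 4 (0.648). Ddah2 was at -0.60 without ApoE-/-NPRC-/- 1 (0.177) and -0.25 without ApoE-/-NPRC-/- 2 (0.852). The log2 ratio of Ddah1 to Ddah2 differed by -0.25 by title (exact permutation p = 0.286) and by 0.10 by genotype entry (exact permutation p = 0.679). Without ApoE-/- 4 the difference by title was -0.12, and without ApoE-/-NPRC-/- 2 it was -0.16.

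Gch1 (MSTRG.10309, chr14:47153895-47189413, minus strand) encodes GTP cyclohydrolase, the first enzyme of tetrahydrobiopterin synthesis. It stood at 1.59, 1.74, 1.67, 1.63 and 0.90 FPKM in ApoE-/- 1 to 5 and at 1.43, 0.48 and 0.63 FPKM in ApoE-/-NPRC-/- 1 to 3. Libraries ApoE-/- 1 to 4 lay close together, ApoE-/- 5 lay well below them, and ApoE-/-NPRC-/- 1 lay nearer to those 4. The log2 fold change of -0.82 ± 0.37 (SE) by title was the lowest of the 8 tested genes, with an unadjusted p of 0.056 and an adjusted p of 0.376. It was -0.35 ± 0.45 by genotype entry, and by title it was -1.39 without ApoE-/-NPRC-/- 1 (adjusted p of 0.081) and -0.51 without ApoE-/-NPRC-/- 2 (0.799). The log2 ratio of Gch1 to Nos3 was lower by 0.79 in the titled ApoE-/-NPRC-/- libraries (a difference of -0.79, exact permutation p = 0.0714, adjusted 0.357), and by genotype entry the difference was -0.48 (exact permutation p = 0.357).

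The arginases were low. Arg2 (MSTRG.7317, chr12:79130777-79156301, plus strand), the mitochondrial enzyme, was at 1.31, 0.90, 2.10, 1.44 and 0.73 FPKM in ApoE-/- 1 to 5 and at 1.27, 0.65 and 0.47 FPKM in ApoE-/-NPRC-/- 1 to 3. The groups overlapped, and the log2 fold change of -0.73 ± 0.45 (SE) had an adjusted p of 0.491 by title, beside -0.48 ± 0.48 by genotype entry. The value by title was -1.21 without ApoE-/-NPRC-/- 1 (adjusted p of 0.199), -0.45 without ApoE-/- 3 (0.707) and -0.46 without ApoE-/-NPRC-/- 3 (0.838), and by genotype entry it ran from -1.08 to -0.16. Another locus named Arg2 held 30 to 119 counts, and with both loci summed the value by title was -0.32 (adjusted p of 0.641). The end of Vti1b on the opposite strand, with 1321 to 2030 counts, overlaps Arg2 over 285 bases. Relative to Nos3, Arg2 differed by -0.57 on the log2 scale by title (exact permutation p = 0.25) and by -0.64 by genotype entry (exact permutation p = 0.179). By title this was -0.20 with the loci summed, -0.29 without ApoE-/-NPRC-/- 3 and -0.31 without ApoE-/- 3.

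Arg1 (MSTRG.2737, chr10:24915221-24927484, minus strand), the cytosolic arginase that marks alternatively activated macrophages in mice, had 25 to 281 counts. It was at 0.39, 0.34, 0.60, 0.57 and 0.87 FPKM in ApoE-/- 1 to 5 and at 1.20, 0.14 and 0.26 FPKM in ApoE-/-NPRC-/- 1 to 3. The titled ApoE-/-NPRC-/- libraries held both the highest and the 2 lowest values, and the log2 fold change without a filter was -0.04 ± 0.60 (SE). With single libraries left out it ran from -1.39, without ApoE-/-NPRC-/- 1, to 0.43, so its sign was not stable.

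Slc7a1 (MSTRG.26352, chr5:148327410-148399904, minus strand), the transporter CAT1 that carries arginine into cells, varied least of the 10 in relation to its mean. It was at 3.66, 4.19, 4.82, 4.77 and 3.20 FPKM in ApoE-/- 1 to 5 and at 3.91, 3.23 and 3.91 FPKM in ApoE-/-NPRC-/- 1 to 3. All 3 titled ApoE-/-NPRC-/- values lay inside the ApoE-/- range, with a log2 fold change of -0.15 ± 0.20 (SE) by title and 0.04 ± 0.21 by genotype entry.

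In the 4 libraries whose labels agree, values alone can be given. ApoE-/-NPRC-/- 3 lay below all 3 ApoE-/- libraries in Nos1, Nos2, Ddah1, Ddah2, Gch1, Arg1 and Arg2, above them in Cav1, and within their range in Nos3 and Slc7a1. It lay below all 3 at 23.9% of the loci with any count, and at 31.4% of the tested loci, where 5 of the 8 tested genes did. It lay above all 3 at 29.9% of the tested loci. The differences in log2 CPM from the mean of the 3 were -2.76 for Nos1, -1.42 for Arg2, -1.30 for Gch1, -0.75 for Ddah1, -0.60 for Nos2, -0.56 for Ddah2 and 0.49 for Cav1.

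Across the libraries, 10 of the 100 pairs of a gene and a marker list had a Pearson r with an adjusted p under 0.05. The share of all tested loci that go with each list this closely is not given here. The count therefore has no background beside it, and such an r cannot be called particular to these genes. Ddah1, Ddah2 and Gch1 went with macrophage and with fibroblast markers, Arg2 with macrophage markers, and Ddah2 and Gch1 with lymphocyte markers, while Ddah1 went against skeletal muscle markers. The mean level of the 10 macrophage markers (Cd68, Adgre1, Csf1r and others) was 6.39 to 7.88 log2 CPM in the ApoE-/- libraries and 5.76 to 6.97 in the ApoE-/-NPRC-/- libraries. By title 5 of 10 had an unadjusted p under 0.05, against 13.6% of all loci, and no marker was at 0. The difference in the macrophage level was -1.0 by title and -0.34 by genotype entry, where 0 of 10 had such a p, against 1.31% of all loci. Ddah1 had a Pearson r of 0.93 with it (permutation p = 0.000942, adjusted 0.0249 over 100 pairs) and a Spearman rho of 0.95 (permutation p = 0.00114, adjusted 0.0228). For Ddah2 r was 0.93 (permutation p = 0.00169, adjusted 0.0249) and rho 0.88 (permutation p = 0.00724, adjusted 0.0603). For Gch1 r was 0.90 (permutation p = 0.00174, adjusted 0.0249) and rho 0.95 (permutation p = 0.00114, adjusted 0.0228). Arg2 had an r of 0.90 (permutation p = 0.00278, adjusted 0.032) and a rho of 0.90 (permutation p = 0.00456, adjusted 0.0456). Without the 2 libraries farthest from the median, r was 0.99 for Ddah1, 0.94 for Ddah2, 0.89 for Gch1 and 0.79 for Arg2. Arg2 also had a rho of 0.90 with the fibroblast markers (permutation p = 0.00456, adjusted 0.0456), where its r was 0.82 (permutation p = 0.012, adjusted 0.107).

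Nos2, the synthase best known from activated macrophages, had an r of 0.81 with the macrophage markers, which did not pass the adjustment (permutation p = 0.0192, adjusted 0.112), and a rho of 0.83 (permutation p = 0.0154, adjusted 0.0963). Without the 2 farthest libraries its r was 0.88. Nos2 was as close to the fibroblast markers, with an r of 0.81 (permutation p = 0.0171, adjusted 0.112) and a rho of 0.86 (permutation p = 0.0107, adjusted 0.0764). For Nos2 and the neutrophil markers r was 0.76 (permutation p = 0.0299, adjusted 0.136) and rho 0.83 (permutation p = 0.0154, adjusted 0.0963). The 6 fibroblast markers went with the macrophage markers (r = 0.94 over the 8 libraries), and their level was 8.12 to 9.11 log2 CPM in the ApoE-/- libraries and 7.42 to 8.25 in the ApoE-/-NPRC-/- libraries. That level differed by -0.79 by title and -0.09 by genotype entry. Gch1 had an r of 0.93 with the fibroblast markers and a rho of 1.0, each at the smallest permutation p of 5e-05 (adjusted 0.005), with an r of 0.89 without the 2 farthest libraries. With the lymphocyte markers, of which 1 of 7 passed the filter, Ddah2 had an r of 0.81 (permutation p = 0.000298, adjusted 0.0149) and a rho of 0.98 (permutation p = 0.000397, adjusted 0.0198). For Gch1 r was 0.75 (permutation p = 0.00288, adjusted 0.032) and rho 0.90 (permutation p = 0.00456, adjusted 0.0456). Of the skeletal muscle markers 4 of 8 passed the filter, but Myh2 and Myh4 share 1 locus, which enters the level once under each name. Ddah1 and these markers had an r of -0.83 (permutation p = 0.00451, adjusted 0.0451) and a rho of -0.79 (permutation p = 0.0279, adjusted 0.147). Without the 2 farthest libraries these 3 values of r were 0.87, 0.79 and -0.63. These relations pool the groups, since no group has enough libraries for a correlation of its own, and the part of these cell types in the values of the 10 genes was not tested.

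**Figure D4:**
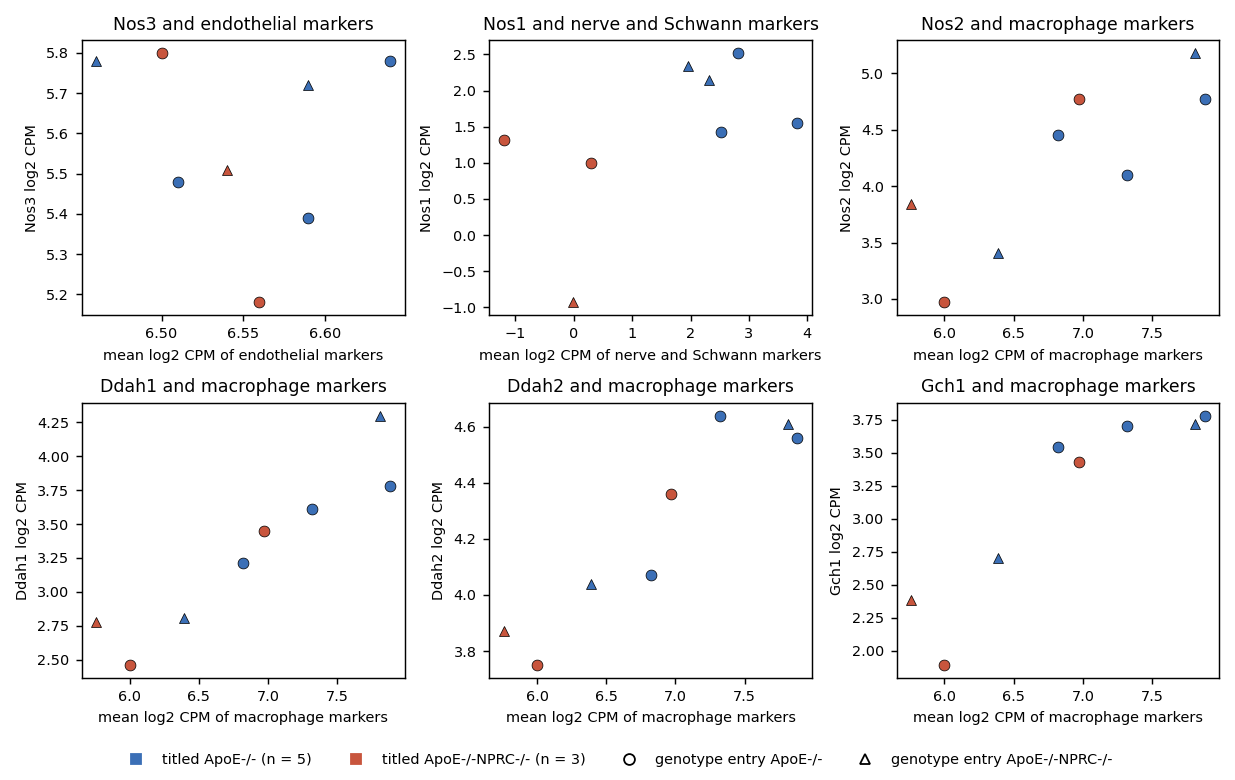
Log2 CPM of a gene (vertical axis) against the mean log2 CPM of a marker list (horizontal axis), 1 point per library, with colour for the title and shape for the genotype entry. Ddah1, Ddah2 and Gch1 climb with the macrophage markers (r of 0.93, 0.93 and 0.90), while Nos3 shows no slope over the narrow range of the endothelial markers.

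Among themselves, Ddah1 and Ddah2 had a Pearson r of 0.93 in log2 CPM over the 8 libraries, Nos2 and Ddah1 0.91, Ddah2 and Gch1 0.90 and Ddah1 and Gch1 0.89, given as a description with no test. Cav1 had a negative r with each of the other tested genes other than Nos3 (0.18). The loci most like each gene over the 8 libraries, out of 18478 tested loci with 1 name, were Ccr1, Abi3 and Vav3 for Nos2 (r of 0.976 to 0.974) and Gm28229, Gm38104 and Rps6ka3 for Nos3 (0.974 to 0.946). For Cav1 they were Xpnpep1, Hjurp and Trappc9 (0.963 to 0.934), for Ddah1 Tram1, Slc41a2 and Klhl6 (0.993 to 0.992), and for Ddah2 Rassf1, Rpl35 and Rpl7l1 (0.994 to 0.993). For Gch1 they were Gsdmd, Tvp23a and Traf1 (0.991 to 0.988), for Arg2 Map4k4, Commd4 and Tep1 (0.982 to 0.974), and for Slc7a1 Adgra2, Plekho2 and 1700017B05Rik (0.996 to 0.978). These values rank the loci and carry no test.

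Of 52 further genes of nitric oxide and arginine metabolism, 43 were tested and 0 passed an adjusted p of 0.05. By title 9 had an unadjusted p under 0.05 against 13.6% of all loci. Of these 9 genes 4 were lower (7.13% of all loci) and 5 higher (6.51%). By genotype entry 0 did. Their median log2 fold change was 0.02 by title and 0.01 by genotype entry.

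Of the 12 genes that bind or regulate the synthases, 3 were higher at an unadjusted p under 0.05 by title, against 6.51% of all loci, and 0 by genotype entry, and Cav3 and Nos1ap of these are described. Cav3, the muscle caveolin, was at 1.67, 1.99, 1.7, 1.9 and 1.49 FPKM in ApoE-/- 1 to 5 and at 2.53, 3.05 and 3.06 FPKM in ApoE-/-NPRC-/- 1 to 3, without overlap. Its log2 fold change was 0.74 ± 0.19 (SE), with an unadjusted p of 0.00353 and an adjusted p of 0.255. Nos1ap, the adaptor of nNOS, had 0.53 ± 0.22. By genotype entry Cav3 had 0.03 ± 0.32 and Nos1ap 0.00 ± 0.29. Hsp90ab1, a chaperone of eNOS, was the most abundant of the 12, with 137.21 to 161.35 FPKM in the ApoE-/- libraries and 137.38 to 184.27 in the ApoE-/-NPRC-/- libraries.

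Of the 2 tested genes of arginine synthesis 1 was lower at an unadjusted p under 0.05 by title, as were 2 of the 4 of cationic amino acid transport and 1 of the 12 of arginine and ornithine use, against 7.13% of all loci. By genotype entry 0 genes of these roles had such a p. Gatm, which transfers the amidino group of arginine in creatine synthesis, was at 2.47, 3.81, 4.87, 4.83 and 1.78 FPKM in ApoE-/- 1 to 5 and at 1.93, 0.77 and 0.60 FPKM in ApoE-/-NPRC-/- 1 to 3. Its log2 fold change of -1.71 ± 0.50 (SE) had an unadjusted p of 0.00765 and an adjusted p of 0.267, and it was the 1 gene of the 43 that met the fold change criterion. Ass1, which acts in the return of citrulline to arginine, was at 4.06 to 5.72 FPKM in the ApoE-/- libraries and at 3.72, 1.81 and 1.54 in the ApoE-/-NPRC-/- libraries. Its groups did not overlap, as for 3.69% of all loci in this direction, and its log2 fold change was -0.98 ± 0.30. The arginine exporter subunits Slc7a7 and Slc3a2 had -0.77 ± 0.33 and -0.52 ± 0.22. Pycr1, which makes proline, had 0.61 ± 0.26. By genotype entry the values were -0.18 ± 0.71 for Gatm, -0.16 ± 0.43 for Ass1, -0.01 ± 0.42 for Slc7a7, -0.15 ± 0.27 for Slc3a2 and 0.16 ± 0.34 for Pycr1.

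Of the 3 tested subunits of soluble guanylate cyclase, the receptor of nitric oxide, Gucy1b1 was higher at an unadjusted p under 0.05, with a log2 fold change of 0.45 ± 0.19 (SE) and an adjusted p of 0.347. Its partner Gucy1a1 had 0.02 ± 0.22, and by genotype entry the values were 0.23 ± 0.23 and 0.13 ± 0.22. None of the 4 tested cofactor genes or the 6 tested genes of arginine methylation reached an unadjusted p under 0.05, and their values ran from -0.47 to 0.33 and from -0.31 to 0.45. Of the genes below the filter, the urea cycle enzyme Cps1 was listed at 2.01 FPKM in ApoE-/- 5 and at 0.10 or less in the other 7 libraries.

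**Figure D5:**
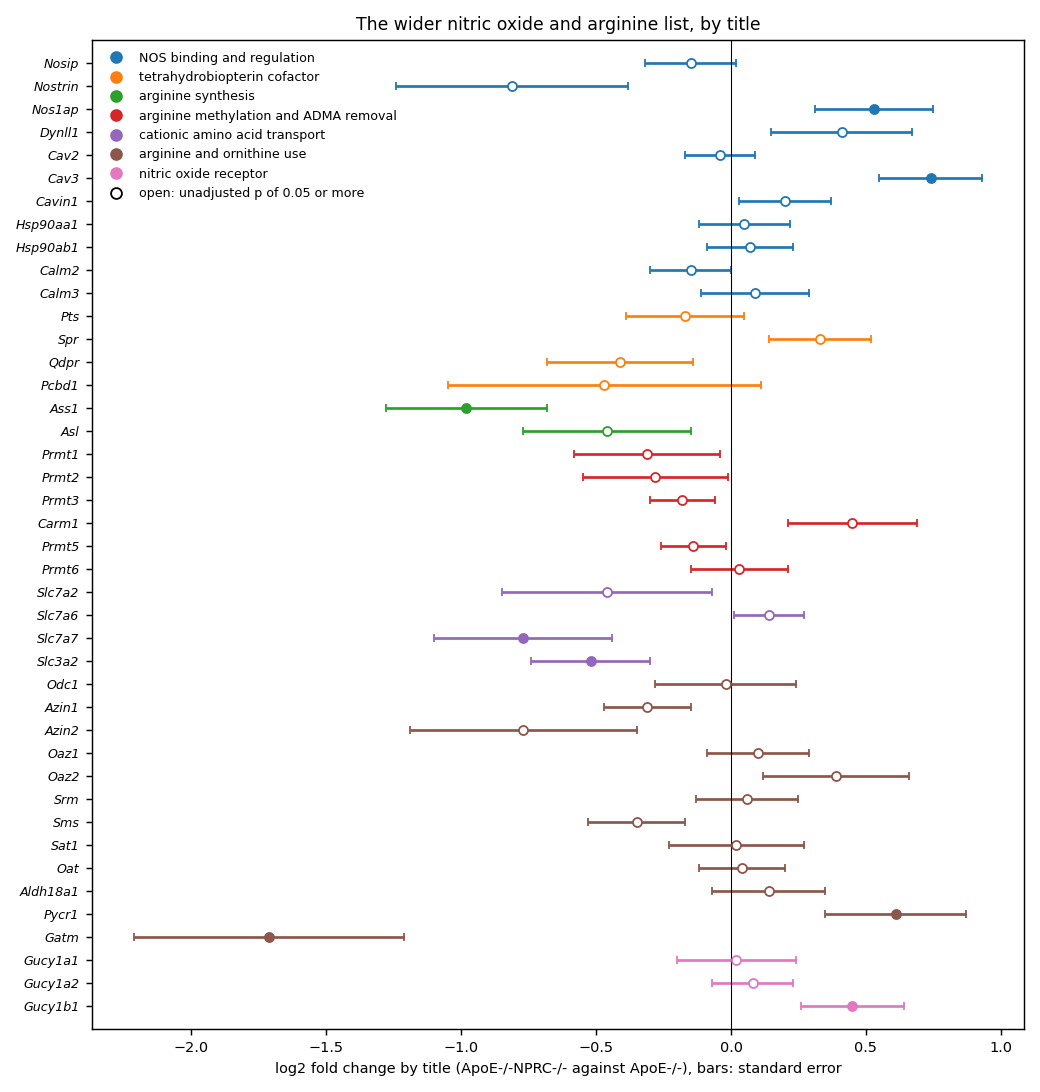
Log2 fold change by title (horizontal axis) with its standard error for 42 of the 43 tested genes of the wider list, coloured by role; filled points have an unadjusted p under 0.05. Gatm at -1.71 lies lowest and Cav3 at 0.74 highest of those shown, and 34 of the 42 points are open.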

How the data were processed

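RNA from 8 whole mouse aortas had been sequenced from stranded poly(A) libraries. Per the labels the authors used cutadapt 1.9, FastQC and GRCm38, and per the study's methods they mapped reads with HISAT2 and assembled loci with StringTie. The authors deposited raw counts per locus, without normalization, and FPKM, normalized to transcript length and mapped fragments. How counts were derived from the assembly is not given in the sources used here. Annotation and GO or KEGG columns were not used.

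Counts were fitted over all 20506 loci with edgeR 4.0.16 in R 4.3.3 (TMM, quasi-likelihood test, Benjamini-Hochberg), with SE as the log2 fold change over the root of F. Nos1 and Arg1 were fitted without a filter on low values. For a name with several loci the one with most counts was used. Log2 CPM had a prior count of 2. Exact permutation tests were two-sided. Each mouse was 1 library, and 5 against 3 limits the precision more than depth (62969165 to 86693276 counts), with a biological coefficient of variation of 0.327. The fits were tested on simulated data. The 10 genes, the 52 of the wider list and the 10 marker lists were chosen with earlier results of these data known. Named were the 10 genes, wider-list genes with an unadjusted p under 0.05 and otherwise at most the 2 most abundant of a role, the 3 loci most like each tested gene, and Npr3. Cav2, Cps1, Th and overlapping loci were named after their values were seen. The values of 1 gene of the wider list are not reported here, and it counts in the list's totals.

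Alternatives were DESeq2 1.42.0, its size factors, limma 3.58.1 on log2(FPKM + 1) or log2(FPKM + 0.1), voom with sample weights, other filters, summed loci, a replicate block and each library left out. Of the other marker lists, white and brown adipocyte, lymphocyte, neutrophil and skeletal muscle levels overlapped between the titled groups, which does not mean equal levels. By title the mean level differed by 2.18 for skeletal muscle, -1.28 for lymphocyte and 0.49 for brown adipocyte markers. For neutrophil and white adipocyte markers it differed by 0.06 and -0.04. By genotype entry the values in the same order were 0.22, -0.39, -0.06, -0.61 and -0.05.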

Additional observations from a re-analysis of the deposited data

Results flagged for a closer look

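Groups of 5 libraries were examined for a library far from the other 4, by the gap to its nearest neighbour over the range of the group, and 4 of 50 groups held one where chance gives about 2.5. Gch1 was lowest in ApoE-/- 5 among the titled ApoE-/- libraries, at 2.70 log2 CPM with the nearest at 3.54. Among the libraries with the single knock-out in the genotype entry, Gch1 was lowest in ApoE-/-NPRC-/- 2, at 1.89 with the nearest at 3.43. In the same group ApoE-/- 3 was lowest in the brown adipocyte markers, at 4.60 log2 CPM with the nearest at 5.85, and highest in the log2 ratio of Arg2 to Nos3, at -3.49 with the nearest at -4.63. Cav1 in ApoE-/-NPRC-/- 1 belongs to a titled group of 3, which was not examined in this way.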

How the results depend on the processing

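With 5 against 3 libraries and conflicting labels, small differences are beyond the reach of these data. By title, loci with an adjusted p under 0.05 numbered 644 in DESeq2, 130 in voom with sample weights, 2 in limma on log2(FPKM + 1), 2 at a mean of at least 5 FPKM, and 0 to 43 with a library left out. By genotype entry they numbered 9 in DESeq2 and 0 to 2 with a library left out. Loci meeting the fold change criterion numbered 175, 1491, 114 and 2287 by title in limma on log2(FPKM + 1), voom, at a mean of at least 5 FPKM and without a filter. By genotype entry they were 23, 173, 7 and 785, and 56 with loci summed. With a library left out they were 374 to 1592 by title and 73 to 227 by genotype entry.

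Of the 10 genes 1 (Cav1) passed the adjusted p in DESeq2 by title. At an unadjusted p under 0.05, 2 passed in DESeq2 and in both limma fits on FPKM (Cav1 and Gch1), 3 without a filter (Nos1 too), 5 in voom (Cav1, Ddah1, Ddah2, Gch1 and Arg2), and 1 to 5 with a library left out, with 5 without ApoE-/-NPRC-/- 1 and 3 without ApoE-/- 5. Of the wider list 15 passed in voom, 3 at a mean of at least 5 FPKM and 3 to 11 with a library left out by title, and 2 without a filter and 0 to 2 with a library left out by genotype entry. In DESeq2 3 (Cav3, Ass1 and Gatm) passed the adjusted p by title. The share of all loci at an unadjusted p under 0.05 is not given here for each of these settings, so these counts have no background beside them. Voom and the fit without ApoE-/-NPRC-/- 1 also called more loci in all by title. There 1491 and 1592 loci met the fold change criterion, against 712 in the main fit.

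By genotype entry 3 genes turned sign. Ddah1 was -0.03, -0.01 and -0.34 in limma with 0.1, limma with 1 and voom. Nos2 was -0.10, -0.08 and -0.54 there, and -0.01 with loci summed. Slc7a1 was -0.01 in limma with 0.1 and -0.10 in voom. With a library left out, log2 fold changes by genotype entry ran from -0.62 to 0.06 for Cav1, -0.57 to 0.37 for Ddah1, -0.36 to 0.04 for Ddah2, -0.37 to 0.59 for Nos1, -0.70 to 0.32 for Nos2, -0.15 to 0.21 for Slc7a1 and -0.29 to 0.59 for Arg1. By title they ran from -1.39 to 0.43 for Arg1 and -0.29 to 0.04 for Nos3. The ratio of Ddah1 to Ddah2 ran from -0.18 to 0.28 by genotype entry, and that of Nos3 to the endothelial markers from -0.28 to 0.06 by title. The cause was not tested.

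Same-numbered libraries of the titled groups did not deviate together (correlations of -0.314, -0.113 and 0.007, beside -0.16 to 0.23 for libraries with different numbers). With 3 libraries in each group, and labels that conflict for some of them, these values cannot settle whether the numbers pair the mice. With the replicate number as a block in 6 libraries, 2 of the 10 genes had an unadjusted p under 0.05 (Cav1 and Gch1), and Cav1 was at 0.98 with an adjusted p of 0.559. Fitted with no block, those 6 libraries gave 2 of the 10 genes and 5 of the wider list at an unadjusted p under 0.05. At an adjusted p under 0.05 they gave 1 locus. The share of all loci at an unadjusted p under 0.05 is not given here for the fits with and without the block. The leave-one-out fits of Nos1 and Arg1 were added after seeing the data.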
